A study of Mus musculus with 18 samples.

Results

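The genes described here are a list of 34 markers of macrophages and other myeloid cells, measured in mouse hearts that carry a tumour necrosis factor alpha (TNF-alpha) transgene and in hearts of FVB mice. They were found by gene symbol on Affymetrix U74Av2 oligonucleotide arrays, which read each gene through 1 or more sets of short probes. Of the 34 genes, 31 had a probe set annotated with 1 gene symbol, out of 8251 such genes on the array. Where a gene had several, the brightest on average was used. The other 3, Clec4n, Lyn and Plek, are not analysed here. After the dimmer probe sets were set aside, 28 of the 31 remained, out of 5700 genes, and the 3 set aside were Chil3, Cd80 and Cd86.

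The RNA was total RNA from whole heart. The groups were FVB mice of 3 weeks (2 distinct female and 3 male arrays), TNF-alpha transgenic mice of 3 weeks (3 female and 3 male arrays), transgenic males of 13 weeks (3 arrays) and transgenic females of 40 weeks (3 arrays). The labels call the transgene cardiac-specific and place the series at the stages of compensated hypertrophy and dilated failure, but name no promoter, founder line or treatment, and do not say which age stands for which stage. No FVB hearts older than 3 weeks were analysed; the 13-week mice are male and the 40-week mice female. Nothing in the labels states that each array is a separate animal, so the p-values refer to the spread of these samples only, part of which may be technical.

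Macrophages are phagocytes that live in every organ, the heart included, and further ones arise from blood monocytes that enter injured or inflamed tissue. They differentiate under the transcription factor PU.1 and the receptor for colony stimulating factor 1, and are recognised by surface receptors, lysosomal proteins and scavenger receptors. Many of the listed genes, such as Ptprc (CD45) and Lcp1, are expressed by leukocytes of all kinds, so the list reads myeloid cells together with other white blood cells. In RNA from whole tissue, more cells of a type and more RNA per cell cannot be told apart.

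Several properties of the arrays bear on every value below. Deposited columns of FVB female replicates 1 and 2 were identical and were counted as 1 array, called FVB female array 1. That array stood apart, with a Spearman correlation of 0.775 to 0.856 with the other 16 arrays, against 0.956 to 0.964 among the other 4 FVB arrays. Only 7.33% of its probe sets were at or below the floor of 44.675 signal units, against 23.7 to 28.3% on the other arrays, so genes near the floor read higher there. Of the 3 arrays labelled FVB male, 2 had signal above the floor for Xist, a gene expressed in female cells, while 0 of 6 transgenic male arrays did. Counts of called genes on the myeloid list are given with and without these 3 FVB arrays where they move, and those of other lists in part. Counts of genes whose groups of arrays do not overlap are given with all arrays only. The Actb 3' to 5' probe ratio, a measure of RNA integrity, was 1.29 to 1.97 on FVB arrays and 1.12 to 1.44 on 3-week transgenic arrays (p = 0.00866, two-sided exact permutation test), and its part in the results was not tested. Tnf itself was 12.5 to 124.9 on the FVB arrays and 5476 to 11343 on the transgenic arrays of 3 weeks. Cardiomyocyte markers were bright on every array, and the labelled tissue is heart.

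At 3 weeks, 28 of the 28 tested genes were higher in transgenic than in FVB hearts (limma, Benjamini-Hochberg adjusted p under 0.05). The same test called 46.6% of all 7453 probe sets, and 24.7% of the 7453 were called higher. The list was chosen with earlier results of these data known, so shares of all probe sets are no independent check of it. The median log2 difference was 2.84 over the 28 genes and -0.01 over all probe sets tested. Differences ran from 0.96 for Fgr to 5.71 for Chil1. A log2 difference of at least 1, with a call, was reached by 27 of the 28, against 10.6% of all probe sets, and of at least 2 by 22, against 3.58%. A gene silent in FVB hearts could pass the filter on dim probe sets only through its transgenic signal, so the count was also taken without the filter: 28 of 31 genes were then called higher, against 15.2% of 12422 probe sets. The 6 transgenic arrays lay above all 5 FVB arrays for 25 of the 31 genes, against 14.5% of tested probe sets. The groups overlapped for Adgre1, Chil3, Cd80, Cd86, Fgr and Csf2rb. For Fgr and Csf2rb the overlap came only from FVB female array 1. For 14 of the 28 genes at least 1 FVB array lay at the floor, and the log2 difference is then smaller than the deposited values would give on the log2 scale.

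**Figure D1:**
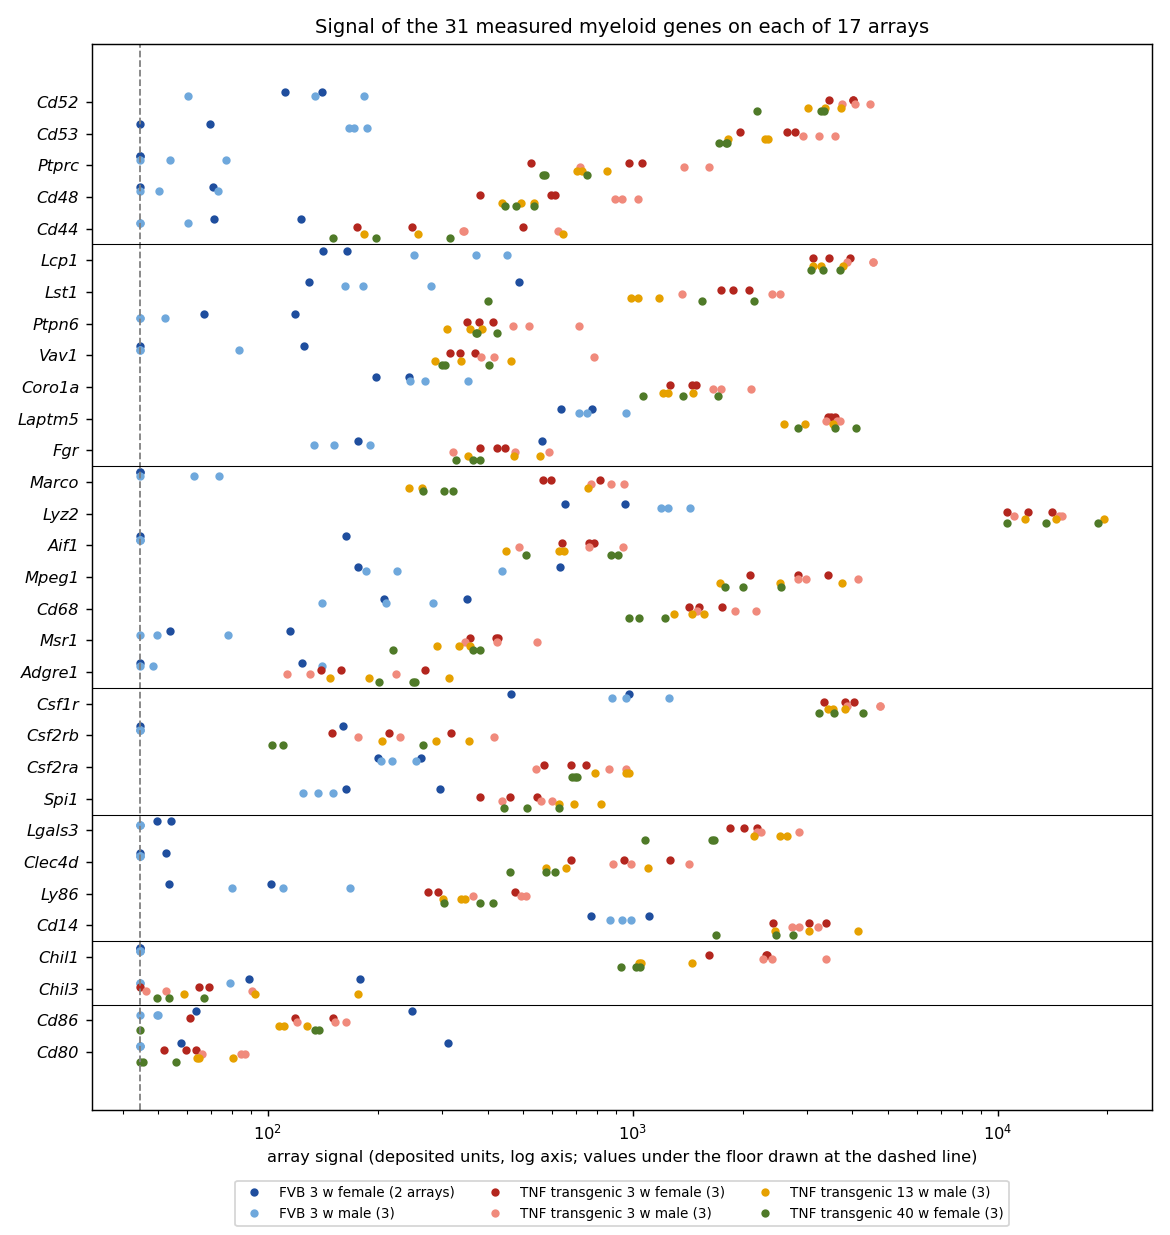
Array signal of the 31 measured genes (log axis, deposited units) on each of the 17 distinct arrays, 1 point per array, coloured by group; values under the floor of 44.675 are drawn at the dashed line. For 25 genes every transgenic point of 3 weeks lies to the right of every FVB point, while Chil3, Cd80 and Cd86 at the foot of the plot stay dim in all groups.

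The largest differences were those of Chil1 and Lgals3, both made by activated macrophages. Chil1, a secreted chitinase-like protein, gave signals of 44.0 and 12.0 on the FVB female arrays and 4.0, 2.4 and 5.7 on the FVB male arrays, all under the floor. In transgenic hearts of 3 weeks it gave a lowest signal of 1613, a median of 2328 and a highest of 3381. Chil1 thus went from no FVB array above the floor to a bright signal on all 6 transgenic arrays, at least 52.3-fold higher (adjusted p = 1.14e-13, limma). Lgals3 encodes galectin-3, a sugar-binding protein abundant in macrophages and in fibrosing tissue. Its signals were 49.7 and 54.4 on FVB female arrays, 12.4, 29.9 and 31.7 on FVB male arrays, and 1844 to 2859 with a median of 2195 in the transgenic group. The 3 male FVB arrays lay under the floor, and the difference was 5.52 ± 0.14 (SE, log2; adjusted p = 1.14e-13).

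Clec4d, a C-type lectin receptor of myeloid cells that senses microbial glycolipids, was at 52.6 and 13.7 on FVB female arrays and at 11.6, 5.2 and 9.0 on FVB male arrays. It was at 678 to 1426, with a median of 970, in transgenic hearts. Only FVB female array 1 lay above the floor, and the difference was 4.43 ± 0.20 (SE, log2; adjusted p = 6.47e-11). The remaining pattern recognition genes started from a measurable FVB level. Cd14, the co-receptor for bacterial lipopolysaccharide, was 769.0 to 1110 on FVB arrays and 2421 to 3397 in transgenic hearts, a difference of 1.66. Ly86, a secreted partner of a toll-like receptor homologue, was 53.6 to 167.8 in FVB and 274.3 to 508.6 in transgenic hearts, a difference of 2.09.

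Short stretches upstream of the start sites are shown for genes on which the results turn, to give the genomic context of 3 of the most strongly raised genes and of the 2 raised genes in which a PU.1, AP-1 or C/EBP motif was found. They are from RefSeq on GRCm38.p6, end at the base before the annotated start, and run 5' to 3' on the strand of the gene, with any match to a searched motif in capitals. Of the 31 measured genes, 22 had such a sequence, in 25 windows.
Chil1 (chr1:134182056-134182155, plus strand): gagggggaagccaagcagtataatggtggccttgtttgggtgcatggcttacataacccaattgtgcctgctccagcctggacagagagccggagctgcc
Lgals3 (chr14:47373760-47373859, plus strand): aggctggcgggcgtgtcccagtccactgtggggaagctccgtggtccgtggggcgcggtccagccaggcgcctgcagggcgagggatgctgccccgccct
Cd53 (chr3:106790150-106790249, minus strand): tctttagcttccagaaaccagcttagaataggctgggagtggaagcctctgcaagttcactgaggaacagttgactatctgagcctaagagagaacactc
Cd68 (chr11:69666171-69666339, minus strand): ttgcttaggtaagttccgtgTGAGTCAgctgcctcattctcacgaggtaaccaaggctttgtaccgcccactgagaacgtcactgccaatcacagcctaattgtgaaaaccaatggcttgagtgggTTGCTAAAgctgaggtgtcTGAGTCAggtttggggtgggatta
Vav1 (chr17:57279000-57279099, plus strand): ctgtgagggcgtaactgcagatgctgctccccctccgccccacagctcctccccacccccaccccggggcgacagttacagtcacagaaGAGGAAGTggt
The capitals in Cd68 are an AP-1 match 149 bases before the start, a C/EBP match 43 bases before it and a second AP-1 match 24 bases before it, and those in Vav1 are a PU.1 match 11 bases before the start. Over the 250 bases before each start, on both strands, the PU.1 core GAGGAAGT was found in 1 of 25 windows (4%, against 2.44% of 32851 windows of all genes). The AP-1 motif TGANTCA was found in 2 windows, those of Cd68 and Cd80 (8% against 6.75%), and the C/EBP motif TTGCNNAA in 1 (4% against 9.56%). The NF-kB motif GGANTTTCC was in 0 windows, against 1.07% of all, and TATAAA in 2 (8% against 12.4%). These counts describe letters only and were not tested.

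Genes of the leukocyte surface were called higher in 5 of 5. Cd52, a small glycoprotein on lymphocytes and myeloid cells, was 141.1 and 111.4 on FVB female arrays and 183.9, 134.5 and 60.4 on FVB male arrays, against 3450 to 4456 with a median of 4018 in transgenic hearts. The difference was 5.04 ± 0.23 (SE, log2; adjusted p = 6.47e-11). Cd53, a tetraspanin of leukocytes, was 69.3 and 39.2 on FVB female arrays, 167.4, 186.9 and 171.9 on FVB male arrays, and 1973 to 3578 with a median of 2856 in transgenic hearts. Its FVB female arrays both lay below its FVB male arrays, and the difference was 4.83 ± 0.14 (adjusted p = 7.19e-13). Ptprc, the phosphatase CD45 found on nearly all nucleated blood cells, was 29.2 to 76.6 in FVB and 525.5 to 1620 in transgenic hearts, a difference of 4.28. Cd48, a ligand for receptors of natural killer and T cells, differed by 3.66. Cd44, the hyaluronan receptor, which many other cells express too, differed by 2.33 and was the most variable of the 31 genes among transgenic arrays, with a coefficient of variation of 44.1%.

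The 7 tested genes of the leukocyte cytoskeleton and of signalling in blood cells were all called higher, with a median log2 difference of 2.68. Lcp1, the actin bundler L-plastin, was 141.2 and 164.5 on FVB female arrays, 452.4, 371.4 and 251.4 on FVB male arrays and 3115 to 4560 with a median of 3913 in transgenic hearts. Like Cd53 it was lower on both female than on all male FVB arrays, and the difference was 4.08 ± 0.15 (SE, log2; adjusted p = 1.15e-11). Lst1, a small leukocyte membrane protein, was 487.5 and 129.3 on FVB female arrays, 280.7, 182.1 and 162.4 on FVB male arrays and 1368 to 2537 with a median of 1979 in transgenic hearts, a difference of 3.12 ± 0.39 (adjusted p = 9.22e-06). Its highest FVB value came from FVB female array 1. Ptpn6, a phosphatase that restrains receptor signalling, differed by 2.83. Vav1, an exchange factor of immune receptor signalling, differed by 2.68, and Coro1a, an actin regulator of leukocytes, by 2.67.

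Laptm5, a lysosomal membrane protein of blood cells, differed by 2.24 and had the tightest transgenic values of all, 3390 to 3692, with a coefficient of variation of 3.29%. Fgr, a Src family kinase of myeloid cells, gave the smallest difference. It was 563.2 and 177.1 on FVB female arrays and 190.5, 152.0 and 133.6 on FVB male arrays, against 320.7 to 588.7 with a median of 436.2 in transgenic hearts. A single FVB array, female array 1, lay within the transgenic range. The difference for Fgr was 0.96 ± 0.25 (SE, log2; adjusted p = 0.00528), and it was 1.37 without FVB female array 1 and 0.54 (adjusted p = 0.0311) without FVB female array 3.

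Genes that mark macrophages more closely were called higher in 7 of 7, with a median log2 difference of 3.33. Marco, a scavenger receptor of macrophage subsets that binds bacteria, was 44.6 and 13.5 on FVB female arrays, 73.7, 11.1 and 62.7 on FVB male arrays and 567.5 to 948.6 with a median of 792.0 in transgenic hearts. The difference was 3.86 ± 0.25 (SE, log2; adjusted p = 4.57e-09), with 3 FVB arrays at the floor. Lyz2, the lysozyme of macrophages and granulocytes, was 652.8 and 950.4 on FVB female arrays and 1252, 1431 and 1199 on FVB male arrays. In transgenic hearts Lyz2 reached 10602 to 15044 with a median of 13090, and the difference was 3.67 ± 0.18 (adjusted p = 2.14e-10). Aif1, the calcium-binding protein Iba1, differed by 3.53, and Mpeg1, the pore-forming protein perforin-2, by 3.33. Cd68, a lysosomal glycoprotein used as a general macrophage marker, was 141.1 to 351.7 in FVB and 1428 to 2174 in transgenic hearts, a difference of 2.85. Msr1, the class A scavenger receptor, differed by 2.65.

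Adgre1, which encodes the mouse macrophage antigen F4/80, rose least of this class. It was 124.3 and 30.5 on FVB female arrays, 48.5, 140.4 and 35.1 on FVB male arrays and 112.6 to 269.4 with a median of 149.1 in transgenic hearts. Its groups overlapped, and the difference was 1.21 ± 0.34 (SE, log2; adjusted p = 0.00862). It is the single gene of the 28 whose call was lost under an alternative, with 0.45 (adjusted p = 0.105) when the floor was set at the 40th percentile, 1.17 (0.0606) with array weights and 0.85 (0.0584) without FVB female array 3.

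The lineage factor and the growth factor receptors were called higher in 4 of 4, with a median log2 difference of 1.80, which was not tested against the other classes. Csf1r, the receptor on which most macrophages depend, was above the floor in all FVB hearts, at 465.0 and 976.0 on female and 956.4, 1256 and 877.2 on male arrays. It reached 3334 to 4762 with a median of 3962 in transgenic hearts, a difference of 2.30 ± 0.18 (SE, log2; adjusted p = 3.99e-08). A second, dimmer Csf1r probe set moved the other way, with -1.02 (adjusted p = 0.00449), 152.0 to 546.0 in FVB and 95.8 to 324.3 in transgenic hearts. Csf2rb, the shared signalling chain of the receptors for granulocyte-macrophage colony stimulating factor, interleukin-3 and interleukin-5, was 161.1 and 33.6 on FVB female arrays and 21.3, 16.6 and 20.8 on FVB male arrays. It was 150.2 to 417.8 with a median of 223.1 in transgenic hearts, so that only FVB female array 1 reached into the transgenic range, and the difference was 1.94 ± 0.34 (adjusted p = 0.000278). Csf2ra, the ligand-specific chain of the granulocyte-macrophage receptor, differed by 1.65. Spi1, which encodes PU.1, was 124.7 to 296.8 in FVB and 381.8 to 600.8 in transgenic hearts, a difference of 1.50.

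The 3 genes set aside as dim were not called without the filter either, in the sexes pooled or apart. Chil3, a chitinase-like protein associated with alternatively activated macrophages, was 178.6 and 88.7 on FVB female arrays, 78.9, 33.7 and 43.8 on FVB male arrays and 33.4 to 90.6 with a median of 58.6 in transgenic hearts, a log2 difference of -0.47 (adjusted p = 0.244). Its relative Chil1 thus had the largest difference of the list, while the Chil3 groups overlapped with the sexes pooled. In females the transgenic arrays of Chil3, 33.4 to 69.0, lay below both FVB arrays, with -1.11 (adjusted p = 0.0823, limma without the filter). In males the groups overlapped, with 0.16. Cd86, a co-stimulatory ligand for T cells, was 248.8 and 63.4 on FVB female arrays, 24.9, 50.1 and 49.6 on FVB male arrays and 61.2 to 163.5 with a median of 135.3 in transgenic hearts, with 0.65 (adjusted p = 0.198). Cd80, its partner ligand, was 311.8 and 57.7 on FVB female arrays, 35.6, 9.0 and 15.4 on FVB male arrays and 52.0 to 86.5 with a median of 64.9 in transgenic hearts, with -0.20 (adjusted p = 0.664). By sex, Cd86 was 1.59 in males (adjusted p = 0.0534) and -0.29 in females (0.745), and Cd80 was 0.81 (0.259) and -1.20 (0.0691), with an adjusted p of 0.266 and 0.17 for the difference between sexes. In males the transgenic arrays of Cd86 and Cd80 lay above the FVB arrays, and in females the groups overlapped. For all of Chil3, Cd86 and Cd80 the highest of the 17 arrays was FVB female array 1.

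Of the other probe sets of these genes with 1 symbol, 5 were bright enough to be tested. Besides that of Csf1r, those of Laptm5 (2.52) and Ptprc (2.68) and 1 of Vav1 (1.12) were called higher, and a second of Vav1 was not called (-0.33, adjusted p = 0.433). A probe set whose annotation names both Lyz1 and Lyz2 differed by 5.32, and it cannot tell these near-identical genes apart. One naming both Csf2rb2 and Csf2rb differed by 0.75, against 1.94 for the Csf2rb probe set used.

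The 3-week difference did not rest on the doubted FVB arrays. The median over the 28 genes was 3.05 without FVB female array 1 and 3.26 without that array and the 2 FVB male arrays with Xist signal, with 28 of 28 called in both cases. For 14 of the 28 genes FVB female array 1 was the highest FVB array.

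In females alone, 25 of 28 genes were called higher (34.7% of all probe sets called, 19.4% higher), with a median log2 difference of 2.60. In males alone 27 were called higher (29.7% and 16.9%), with a median of 3.25. Fgr, Adgre1 and Csf2rb were not called in females, with 0.40 (adjusted p = 0.421), 1.28 (0.0609) and 1.36 (0.0504), and Adgre1 was not called in males, with 1.15 (0.0699, all limma). Without the 3 doubted FVB arrays, 27 genes were called in females and 28 in males, with each FVB group then a lone array whose spread is taken from the remaining groups.

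The difference between the sexes in the size of the transgene effect was tested on its own. It called 0 of the 28 genes (0% of all probe sets), while 7 had an unadjusted p under 0.05 against 16.5% of all probe sets (limma). The largest differences of effect were 1.51 ± 0.68 (SE, log2) for Cd44 and 1.47 ± 0.32 for Ptpn6 toward males (adjusted p = 0.284 and 0.0965), and -1.25 ± 0.29 for Cd53 toward females (adjusted p = 0.100). With FVB female array 3 left out, 8 of the 28 genes and 1490 of the 7453 probe sets were called, Cd48, Aif1, Ptpn6, Fgr, Spi1, Csf2rb and Vav1 toward males and Cd53 toward females, and the female control was then the outlying array alone. With that outlying array left out instead, 0 were called. Cd53 was called also under quantile normalisation, a common median, no filter and with both identical columns kept, and Ptpn6 under the last 2 of these. A common median moved the median of all probe sets in this comparison to -0.39 and quantile normalisation to -0.14, from -0.04.

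**Figure D2:**
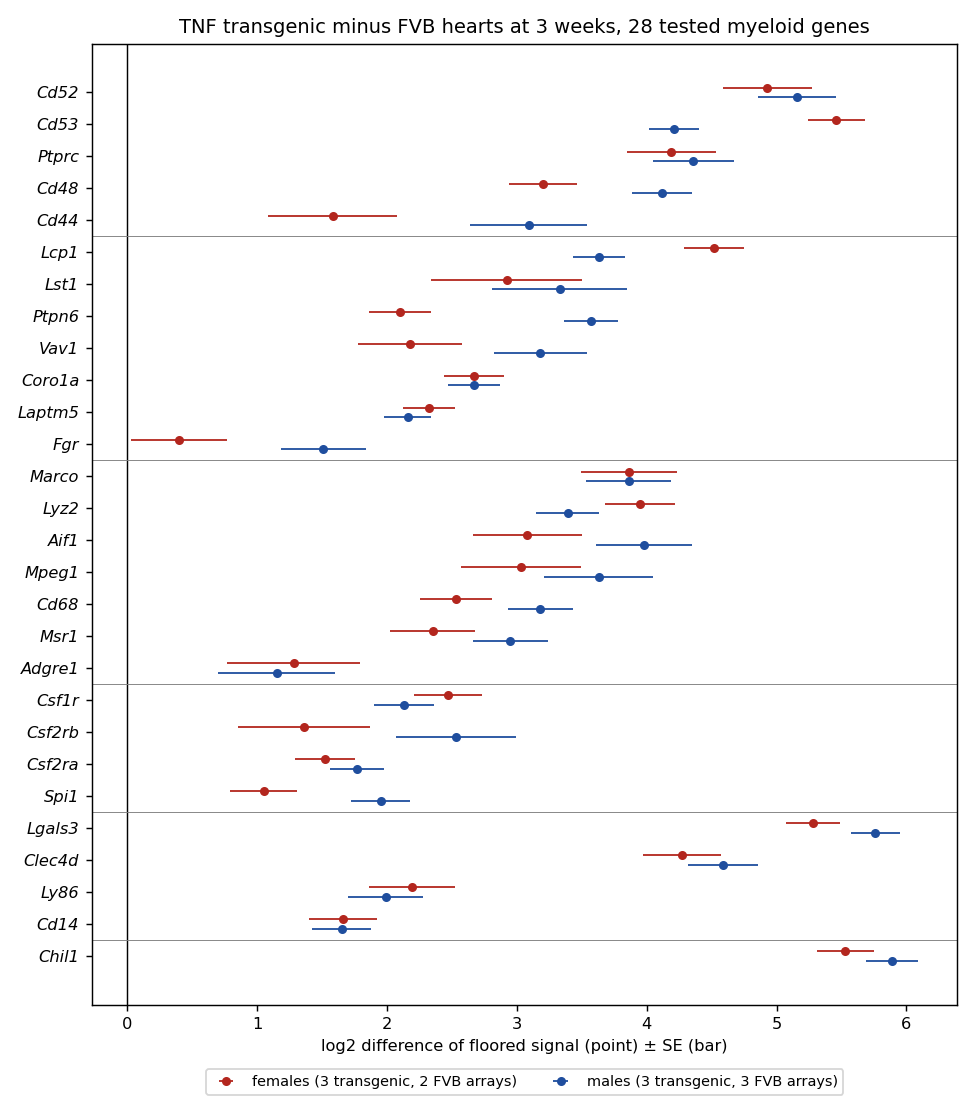
Log2 difference in array signal, transgenic minus FVB hearts of 3 weeks, for the 28 tested genes in order of role, with females in red and males in blue; points are limma estimates and bars are 1 SE. Differences run from 0.40 (Fgr, females) to 5.89 (Chil1, males), and the pair of points is farthest apart for Cd44, Ptpn6 and Cd53.

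At later ages most of the genes lay above the FVB level of 3 weeks, and 1 gene, Chil1, was called lower than in transgenic hearts of 3 weeks. The mean log2 signal over the 31 genes was 6.73 to 7.46 on FVB arrays, 9.51 to 9.97 on transgenic arrays of 3 weeks, 9.48 to 9.76 at 13 weeks and 9.29 to 9.47 at 40 weeks. At 13 weeks all 3 arrays lay above all 5 FVB arrays of 3 weeks for 27 of the 31 genes (16.6% of tested probe sets), and at 40 weeks for 25 (15.8%). These levels set mice of different ages side by side, so age and transgene cannot be told apart in them. Chil3, Cd86, Cd80 and Fgr overlapped with FVB at both ages, and Csf2rb and Lst1 did so at 40 weeks. At 40 weeks Lst1, with 402.4, 1547 and 2152, had 1 array within the FVB range. The overlap of Fgr at both ages and of Csf2rb and Lst1 at 40 weeks came only from FVB female array 1. Its signals were 563.2, 161.1 and 487.5, against at most 190.5, 33.6 and 280.7 on the other FVB arrays. At 13 weeks the overlap of Cd86 and Cd80 came only from that array too.

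In transgenic males, 1 of 28 genes was called between 3 and 13 weeks (0.523% of all probe sets were called, 0.174% lower). It was Chil1, with 2410, 3381 and 2278 at 3 weeks and 1454, 1055 and 1040 at 13 weeks, a change of -1.18 ± 0.20 (SE, log2; adjusted p = 0.0109, limma). Its call was lost without 13-week array 2 (adjusted p = 0.0717), 13-week array 3 (0.073) or 3-week array 2 (0.0636). The change was negative in 20 of the 28 genes (50.6% of all probe sets), with a median of -0.36 against -0.01 over all probe sets, and 6 had an unadjusted p under 0.05 (8.61% of all).

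Of the 31 measured genes, 11 lay lower on all 13-week than on all 3-week male arrays, against 8.22% of tested probe sets. They were Chil1, Marco, Cd48, Cd52, Cd53, Csf1r, Coro1a, Ptpn6, Lcp1, Lst1 and Ly86, and apart from Chil1 none passed the adjusted test. Marco was 769.6, 948.6 and 874.0 at 3 weeks and 753.1, 264.8 and 244.3 at 13 weeks, with -1.24 ± 0.33 (SE, log2; adjusted p = 0.134). One 13-week array of Marco stayed near the 3-week level, and without it the change was -1.76 (adjusted p = 0.00379). Cd48 was 894.6, 1037 and 935.5 at 3 weeks and 494.5, 535.7 and 438.2 at 13 weeks, with -0.97 ± 0.23 (adjusted p = 0.0869). The adjusted p for Cd48 was 0.0438 with either FVB female array left out, which enter only through the shared estimate of spread. Lst1 changed by -0.93 and Clec4d by -0.53, neither called. Spi1 was 560.5, 437.3 and 600.8 at 3 weeks and 820.2, 627.6 and 689.2 at 13 weeks, with 0.42 ± 0.23 (adjusted p = 0.702), and it was the single gene that lay higher on all 13-week arrays (7.55% of tested probe sets).

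In transgenic females, 1 of 28 genes was called between 3 and 40 weeks (0.671% of all probe sets were called, 0.295% lower), again Chil1. Its signals were 2332, 1613 and 2324 at 3 weeks and 930.3, 1018 and 1047 at 40 weeks, a change of -1.05 ± 0.20 (SE, log2; adjusted p = 0.0171, limma). The call was lost without 3-week array 1 (adjusted p = 0.116), 3-week array 3 (0.108), or 40-week array 1 (0.0594), 2 (0.0787) or 3 (0.0544). The change was negative in 21 of the 28 genes (48.7% of all probe sets), with a median of -0.29 against 0.01 over all probe sets, and 6 had an unadjusted p under 0.05 (9.10% of all).

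Those with 40-week arrays all below the 3-week female arrays were 7 of 31, Chil1, Marco, Clec4d, Lgals3, Cd68, Cd52 and Cd53, against 7.55% of tested probe sets. Marco was 814.5, 567.5 and 596.1 at 3 weeks and 303.9, 265.9 and 321.6 at 40 weeks, with -1.14 ± 0.33 (SE, log2; adjusted p = 0.187). Its adjusted p was 0.0137 without 13-week male array 1, which again enters only through the spread. Clec4d was 1264, 678.3 and 948.2 at 3 weeks and 611.2, 461.1 and 580.1 at 40 weeks, with -0.77 ± 0.27 (adjusted p = 0.323). The other changes of largest size in their class were -0.78 for Lst1, -0.59 for Csf2rb and -0.46 for Cd53, none called. Csf2rb was 102.8, 266.0 and 109.9 at 40 weeks, and its change turned to 0.23 with array weights.

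Both age changes were negative for 17 of the 28 genes and positive for 4. The difference between the 13-week change in males and the 40-week change in females called 0 of 28 genes (0% of all probe sets, limma), with 2 at an unadjusted p under 0.05 (2.87% of all), and sex and age cannot be told apart in it. Lyz2, Csf2ra, Spi1 and Adgre1 had positive values at both ages, 0.07 to 0.47, none called.

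**Figure D3:**
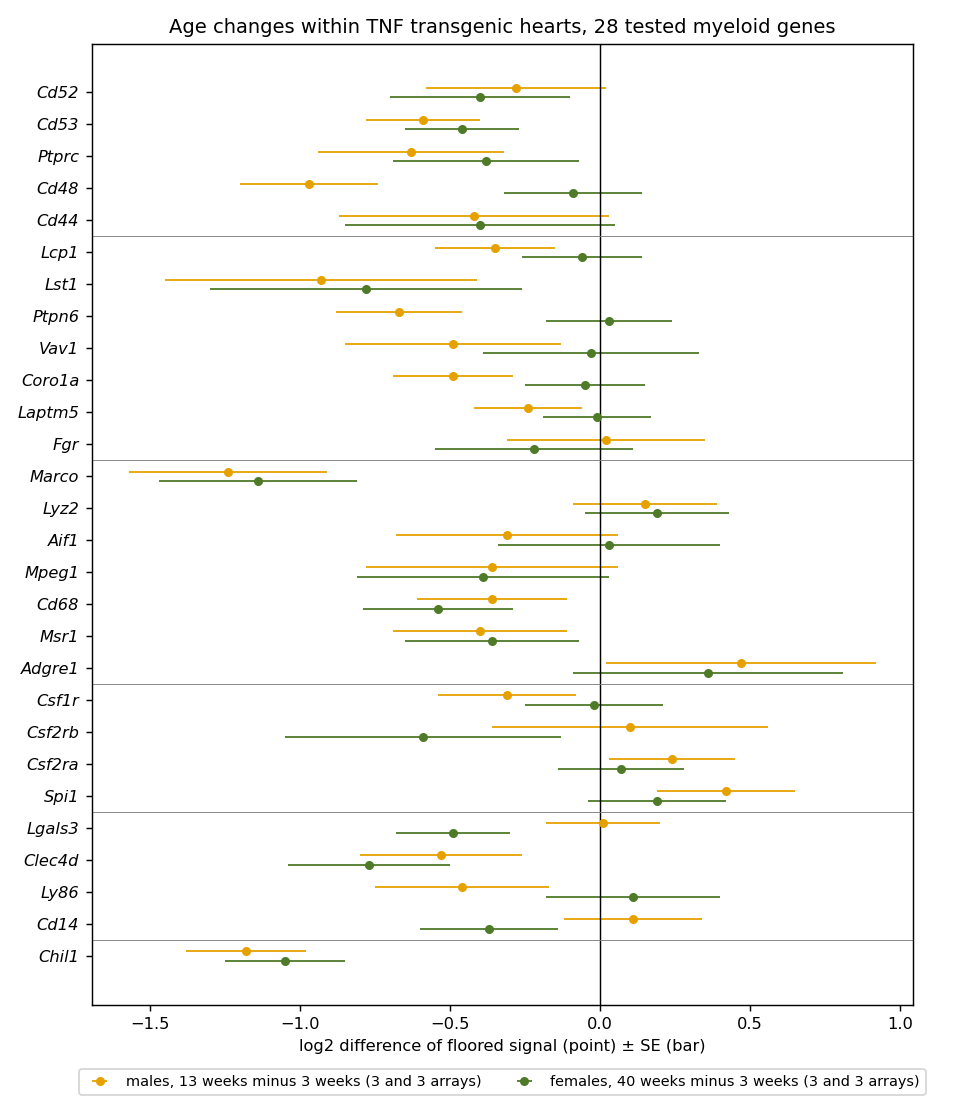
Log2 change in array signal within transgenic hearts for the 28 tested genes, 13 weeks minus 3 weeks in males (orange) and 40 weeks minus 3 weeks in females (green), with limma estimates as points and 1 SE as bars. Chil1, at -1.18 and -1.05, is the gene called at both ages, and Marco, at -1.24 and -1.14, has as large a change with a wider error.

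Other genes of myeloid biology were read through lists of their own at 3 weeks. The counts cover genes past the filter on dim probe sets, which a gene silent in FVB hearts could pass only through its transgenic signal. Beside them stand 24.7% of all 7453 probe sets called higher and 46.6% called in either direction. These lists too were chosen with earlier results of these data known. Genes of monocytes and recruited macrophages were called higher in 8 of 10 tested and lower in 0, with a median log2 difference of 2.53, and higher in 7 without the 2 FVB male arrays with Xist signal. Among them were Itgax (CD11c, 3.63), Plac8 (3.52), Ccr2, the receptor that brings monocytes to inflamed tissue (2.99), and Il1b, an inflammatory cytokine (2.77). FVB arrays at the floor numbered 4 for Il1b and 2 for Ccr2. Of the 7 tested genes associated with resident cardiac macrophages, 1 was higher and 3 were lower, with a median of -0.38. The lower count was 1 without those 2 FVB male arrays and 1 without all 3 doubted FVB arrays, and within a sex it was 1 in females and 0 in males. Of all probe sets, 34.7% were called in either direction in females and 29.7% in males. With the sexes pooled, the resident gene called higher was Ccl8, a chemokine (4.34, with 3 FVB arrays at the floor). Lower were the growth factor Igf1 (-0.70), the hyaluronan receptor Lyve1 (-0.81) and Gas6, a ligand that helps phagocytes take up dying cells (-0.38). Other heart cells also express Igf1, Lyve1 and Gas6. These calls were weak: that of Igf1 was lost with the mean over its probe sets (-0.08, adjusted p = 0.824) or without FVB female array 1 (-0.55, 0.081), that of Lyve1 without FVB female array 3 (-0.79, 0.0506) or 3-week female array 2 (-0.60, 0.0552), and that of Gas6 without any of several arrays (-0.19, 0.268, without FVB female array 3). The difference between these lists was not tested.

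Myeloid transcription factors were called higher in 6 and lower in 2 of 12 tested, with a median of 0.60, the lower ones falling to 0 without the 2 FVB male arrays with Xist signal. Irf8 (2.69), Runx1 (2.19, with 3 FVB arrays at the floor), Irf5 (1.99) and Cebpa (1.45) were among those raised. Lysosomal and lipid-handling genes of macrophages were called higher in 11 and lower in 2 of 16 tested, and higher in 7 without those 2 FVB male arrays, with a median of 0.46. Mmp12, the macrophage elastase, differed by 6.83 with 3 FVB arrays at the floor, and the list also held the acid lipase Lipa (2.50), Cstb (2.10) and the cholesterol exporter Abca1 (1.43). Kinases and adaptors of blood cells were called higher in 15 of 18 tested, with a median of 1.71. Among them were Blnk (2.85, with 2 FVB arrays at the floor), Skap2 (2.36), Prkcd (1.84) and Ptpre (1.67). Genes of toll-like receptors, their co-receptors and their signalling were called higher in 3 of 4 tested. They were Lbp (1.40), Tlr6 (1.31, with 3 FVB arrays at the floor) and Myd88 (1.09). Of 10 measured activation genes 4 were tested, and 2 were called higher, Il1rn (3.97, with 4 FVB arrays at the floor) and Socs3 (1.37). Of 3 tested growth factors, Csf1, the ligand of Csf1r, was called higher (0.62) and Kitl (0.33) and Csf3 (-0.27) were not called.

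With age, 2 of the 10 monocyte genes were called lower in females at 40 weeks, against 0.295% of all probe sets. They were Hp, haptoglobin (-1.59), and F10, coagulation factor X (-1.57). The call of Hp was lost without 3-week array 1 or 3 or 40-week array 1 or 2 (adjusted p = 0.0621 to 0.169). None of the genes on these lists of myeloid biology was called in males at 13 weeks, where 0.523% of all probe sets were called.

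Markers of other cell types were read in the same comparison, in which 24.7% of all probe sets were called higher and 46.6% in either direction. Their lists too were chosen with earlier results of these data known. T and NK cell markers were called higher in 7 of 7 tested, or 6 of 7 without the 2 FVB male arrays or the 3 doubted arrays. Of 11 measured T and NK markers, 7 passed the filter on dim probe sets. A marker silent in FVB hearts could pass it only through its transgenic signal, so 7 of 7 was partly fixed by the filter. FVB arrays at the floor numbered 4 for Klrd1 and 3 for Zap70. In females alone 2 of 7 were called higher (median log2 difference 0.87) and in males 7 of 7 (2.74), a gap not tested for the list. Of all probe sets, 19.4% were called higher in females and 16.9% in males. For these markers the summed signal of 11 measured of 13 listed was 334.7 to 1287 on FVB and 1506 to 3886 on transgenic arrays of 3 weeks. B cell markers were called higher in 3 of 6, with sums of 799.4 to 2197 and 1847 to 2682. These sums overlapped through 1 FVB female array, at 2197, the others being 1032 (female) and 799.4 to 1054 (males). Blnk, the B cell marker of largest difference at 2.85, is also used by myeloid cells. Neutrophil markers were called higher in 3 and lower in 1 of 5, with sums of 705.3 to 2620 and 1379 to 2102 for 10 genes. The FVB value of 2620 was that of 1 female array. The other FVB arrays, at 1032 (female) and 705.3 to 967.9 (males), lay below all transgenic arrays of 3 weeks. Neither Ngp nor Mmp8 rose above the floor on any of the 6 transgenic arrays of 3 weeks, nor on any of the 3 FVB male arrays. The neutrophil markers called higher were S100a8 (2.33), S100a9 (1.89) and Camp (1.40), and monocytes also express S100a8 and S100a9. The marker called lower was Elane (-1.21). Cardiomyocyte markers were called lower in 7 of 7, with a median of -0.91 (4 of 7 under quantile normalisation) and sums of 158400 to 250700 and 85930 to 161900. Smooth muscle markers were called higher in 2 of 3, Acta2 (1.19) and Tagln (1.14), and lower in 1, Myh11 (-0.66). Their sums were 2613 to 4617 and 6002 to 8651 for 4 genes. The fourth gene, Cnn1, was at the floor on all 3 transgenic female arrays of 3 weeks. Endothelial markers were called lower in 2 of 5, Tek (-0.62) and Pecam1 (-1.16). Mast cell markers were called higher in 1 of 2 tested, Kit (1.83), and lower in the other, Tpsb2 (-0.83). The mast cell markers Cpa3, Mcpt4 and Fcer1a, measured but not tested, gave no signal above the floor in any 3-week transgenic heart. Mcpt4 and Fcer1a gave none on the FVB male arrays either. The summed signal of 2 erythroid markers was 25750 to 39070 in FVB and 13660 to 24480 in transgenic hearts. The part of any of these cell types in the 3-week differences was not tested. Between 3 and 40 weeks in females Acta2 changed by -0.93 (adjusted p = 0.0337). In males at 13 weeks the T and NK marker Gzmb changed by -2.59 (adjusted p = 0.0109), and its call was lost without 13-week array 1 (0.0601) or 3-week array 2 (0.0531) or 3 (0.0572).

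**Figure D4:**
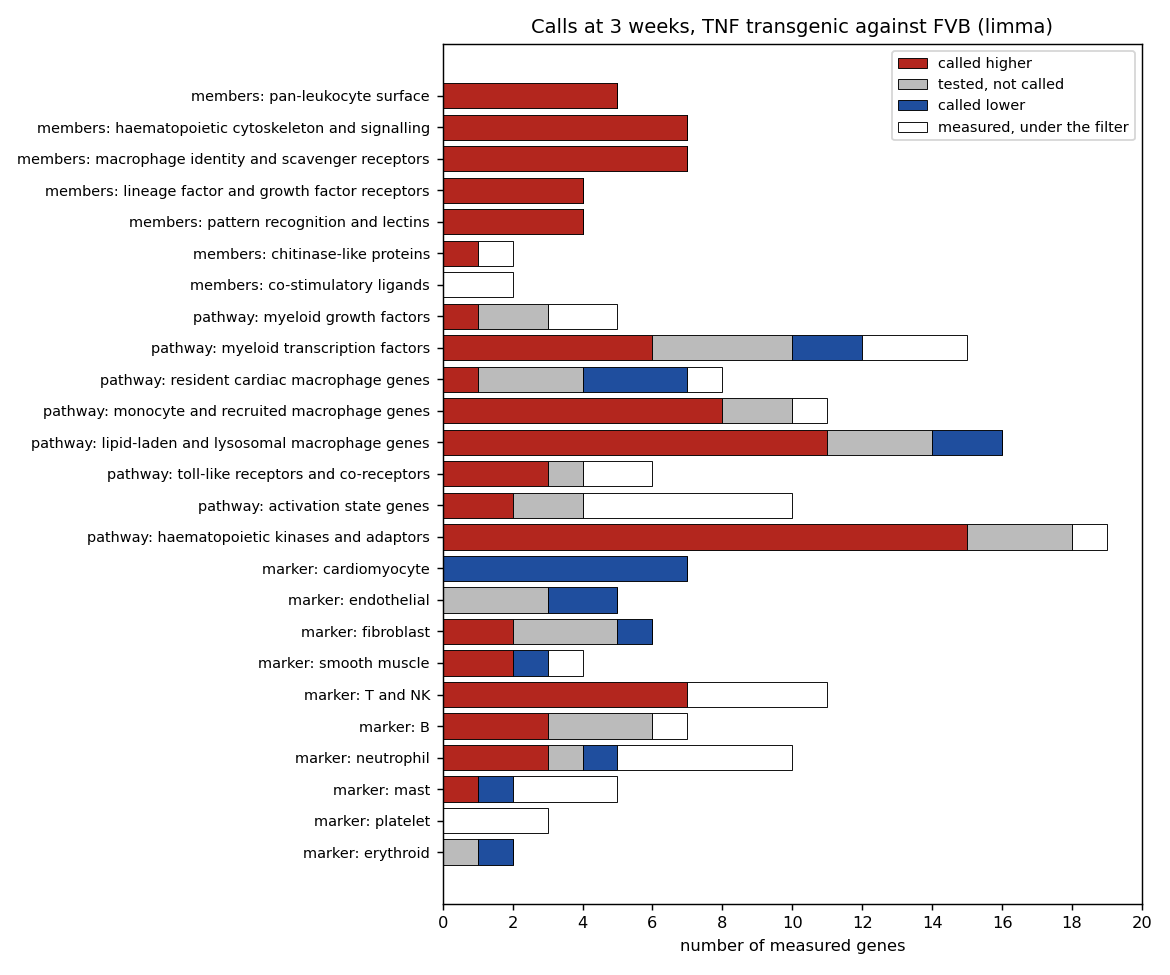
Number of measured genes called higher (red), called lower (blue), tested but not called (grey) or under the filter (white) at 3 weeks, transgenic against FVB (limma), for the roles within the myeloid list, for other lists of myeloid biology and for markers of other cell types. All tested genes of the myeloid roles and of the T and NK list are red, and 7 of 7 cardiomyocyte markers are blue.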

How the data were processed

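Array values are the signal intensity of each probe set on a linear scale, deposited by the authors as 1 table of 18 columns, 1 per sample. Trimmed means, from the 2nd to the 98th percentile, ran from 499.2 to 499.9, so the values were used as scaled by the authors; the scaling software and its settings were not given in the sources used here. Identical columns of FVB female replicates 1 and 2 were counted once, leaving 17 arrays. Groups, sexes and ages came from sample titles. Platform annotation, which can be old, gave the symbols; of 12422 probe sets other than 66 controls, 10833 had 1 symbol, 396 several and 1193 none.

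Signals were floored at the 25th percentile of all values (44.675) and taken as log2, and the brightest 60% of probe sets (7453) were tested. With limma 3.58.1 (R 4.3.3), lmFit and eBayes fitted a mean for each of 6 groups, with two-sided tests, Benjamini-Hochberg adjustment within a comparison and calls at 0.05. The fit was tested on simulated data. The pooled 3-week effect weights the female and male differences equally. Depth has no meaning for arrays, and the number of arrays limits the precision. Values were given in full for the 2 genes of largest difference per role at 3 weeks, the gene of largest change per role at each age, and every gene not called; Adgre1 and Fgr were added after their values were seen. Other lists name up to 4 genes of smallest p. The alternatives tried are in the closing section. Members and lists were chosen with earlier results of these data known.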

Additional observations from a re-analysis of the deposited data

Results flagged for a closer look

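In 61 sets of floored log2 values of the FVB group or the transgenic group of 3 weeks, 8 were flagged by Dixon's criterion. Each had a highest or lowest array far from the others. For normal values chance alone meets the criterion in about 1 of 20 sets, a rate that need not hold for floored values. Of the 8, 6 were the array of FVB female replicates 1 and 2, each time the highest of 5 FVB arrays: Clec4d at 52.6, Aif1 at 164.1, Cd86 at 248.8, Cd80 at 311.8, Fgr at 563.2 and Csf2rb at 161.1. For Clec4d, Aif1 and Csf2rb the other 4 FVB arrays all lay at the floor, so any value above it was flagged. For Cd80, 3 of the other 4 lay there. Cd86 was also low on 3-week transgenic female array 2, at 61.2, where the next lowest was 118.6. Vav1 was high on 3-week transgenic male array 3, at 782.0, where the next highest was 416.3.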

How the results depend on the processing

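Alternatives changed the scaling (a common median, quantile normalisation), the floor (40th percentile, or a constant added), the filter (none, or stricter), the model (intensity trend, array weights, only groups compared, a replicate block), the probe sets (their mean per gene) and the arrays (both identical columns kept, or arrays left out). The counts of genes called at 3 weeks, pooled and in each sex, stayed within 1.5 times of 28, 25 and 27 under each of them. The sex difference of effect, 0 genes, became 1 under quantile normalisation, 1 under a common median, 2 without the filter and 2 with both identical columns kept, and ran from 0 to 8 with 1 array left out. The 13-week change, 1 gene, became 2 with the floor at the 40th percentile, 2 with array weights and 2 without the 3 doubted FVB arrays, and ran from 0 to 2 with 1 array left out. The 40-week change, 1 gene, became 7 with array weights and 0 with only the groups compared, and ran from 0 to 2 with 1 array left out. Fitting only the groups compared, Chil1 was at an adjusted p of 0.0555 at 13 weeks and 0.0749 at 40 weeks, and the 1 gene called at 13 weeks was then Cd48 (-0.97, adjusted p = 0.046). The 40-week change of Csf2rb, -0.59, was 0.23 with array weights. With the replicate number as a block the counts were 28 pooled, 26 in females, 28 in males, 1 at 13 weeks and 1 at 40 weeks, and 0 for both differences of effects. Deviations of same-numbered arrays correlated at -0.336 to 0.466 (median 0.054) over 40 pairs, and those of others at -0.381 to 0.333 (median 0.008) over 80 pairs. With so few arrays per group, these correlations cannot decide whether the numbers pair the arrays. Probe sets called at 3 weeks in all numbered 3474, and 2447 with array weights; in females alone 2587 became 699 with array weights. The cause of these moves was not tested. Signals at the floor limit what can be said of Chil1, Clec4d, Lgals3, Aif1, Csf2rb, Marco, Ptprc and Vav1 in FVB hearts. Each had at least 3 FVB arrays at the floor.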
